A study of Mus musculus with 6 samples.

Results

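β-Amyrin was set against vehicle in late-passage mouse embryonic fibroblasts (MEFs), which are cultured straight from embryos and not from an immortal line. The comparison takes 2 of the 6 libraries of the study, the passage 6 (P6) library of cells kept for 3 days with β-amyrin at 20 µM and the P6 vehicle library. Both came from wild-type cells that the labels call senescent, a passage being one replating of the culture. The other 4 libraries, used here only beside this pair, are P6 cells under α-amyrin (same dose and time) and passage 1 (P1) cells, labelled non-senescent, given vehicle, α-amyrin or β-amyrin in the same way. Poly(A) RNA was sequenced from each culture. Every condition has 1 library, so the pair has no replicate check and is described by the size of each difference, with no p-value. The labels do not say how many embryos or cultures a library came from, nor whether P6 and P1 came from the same isolate.

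β-Amyrin is a pentacyclic triterpene alcohol of plants, and α-amyrin is its isomer. Both are built by plants from the same precursor, oxidosqualene, from which animal cells make lanosterol and then cholesterol. In animal cells the enzymes of cholesterol synthesis are transcribed under SREBP2, a membrane-bound factor that is processed when sterols in the endoplasmic reticulum are low. A high sterol level also activates LXR, a nuclear receptor that raises cholesterol efflux genes. Embryonic fibroblast cultures can carry macrophages, which take up lipid and debris into lysosomes. Macrophages loaded with lipid are known for a gene set that includes Gpnmb, Lgals3 and the fatty acid binding proteins.

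Total counts were 23826025 in P6 vehicle and 25440191 in P6 β-amyrin, and between 18798418 and 28752332 over the 6 libraries. Mitochondrial genes took 1.81% and 1.55% of the counts of the pair. Levels are given as CPM, read counts put on one library size with edgeR's TMM factors, and differences as log2 ratios with a prior count of 2. Of 55487 genes, 11925 had at least 5 CPM in at least 1 library of the pair and are called measured. The fibroblast label fits the marker levels: 18 of 21 fibroblast markers were measured, with Col1a1 at 12608 CPM in vehicle and 11709 CPM with β-amyrin. Markers of macrophages were also present, 27 of 28 measured, whereas none of 15 lymphocyte, 15 neutrophil and mast cell or 11 erythroid markers was measured.

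The stretches of DNA in front of 3 of the sterol synthesis genes are shown because these genes were lower together. RefSeq's promoter table (build GRCm38.p6) held 18 of the 23 enzyme genes listed here. The 3 had the lowest ratios among those whose printed stretch lay outside the gene as annotated in the counts. Idi1, Lss, Cyp51 and Msmo1 had lower ratios but were passed over by that rule, so the 3 are not the lowest enzymes. The letters searched, on both strands over 250 bases before the start, were TCACNCCAC, a core of the sterol response element bound by SREBP2, and ATTGG, the box of NF-Y, a factor known to act beside it. The printed 150 bases run 5′ to 3′ on the gene's strand and end just before the start, with matches in capitals. They lie at chrX:72918371-72918520 (plus strand) for Nsdhl, chr13:119690201-119690350 (plus strand) for Hmgcs1 and chr8:122443423-122443572 (minus strand) for Mvd.
Nsdhl: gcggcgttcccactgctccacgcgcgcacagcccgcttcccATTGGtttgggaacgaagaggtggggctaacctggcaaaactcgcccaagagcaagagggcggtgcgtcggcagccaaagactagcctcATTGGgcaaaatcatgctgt
Hmgcs1: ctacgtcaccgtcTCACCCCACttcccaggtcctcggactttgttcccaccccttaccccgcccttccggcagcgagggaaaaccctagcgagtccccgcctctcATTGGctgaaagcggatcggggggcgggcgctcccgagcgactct
Mvd: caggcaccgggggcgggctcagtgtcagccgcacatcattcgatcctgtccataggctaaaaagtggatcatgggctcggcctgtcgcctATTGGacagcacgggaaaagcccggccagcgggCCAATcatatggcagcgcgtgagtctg
The ATTGG box, or its reverse complement, was present in 16 of the 18 promoters and in 37.5% of the 27025 genes of the table. The sterol response core was present in 1 of the 18, that of Hmgcs1, and in 1.22% of all genes. One more set of letters, TCACGTG, the core of the lysosomal CLEAR box, was present in 2 of the 18 promoters, in 1 of 15 promoters of lipid-laden phagocyte genes and in 3.58% of all genes. These are matches of letters only.

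Most of the transcriptome differed little between β-amyrin and vehicle. The log2 ratio had a median of 0.01 over the measured genes, with 5% of genes below -0.37 and 5% above 0.31, and 97.1% of genes were within 1.5-fold, with 0.788% at least that much higher and 2.11% lower. At least 2-fold higher with β-amyrin were 27 genes (0.226% of those measured), and at least 2-fold lower were 77 (0.646%). Protein-coding genes made up 24 of the 27 and 68 of the 77. The 95% counting interval of the ratio, which covers only the sampling of reads, excluded 0 for all 104 genes and lay beyond 2-fold for 60. That it excluded 0 follows from the calling rule, since 2-fold at 5 CPM or more needs enough counts for that. The minimum of 5 CPM was met in the β-amyrin library alone by 15 of the 27 and in the vehicle library alone by 32 of the 77. In the authors' deposited FPKM values, on the log2(FPKM + 1) scale, the same threshold gave 86 higher and 104 lower genes, 16 and 32 of them shared with the calls from counts.

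**Figure D1:**
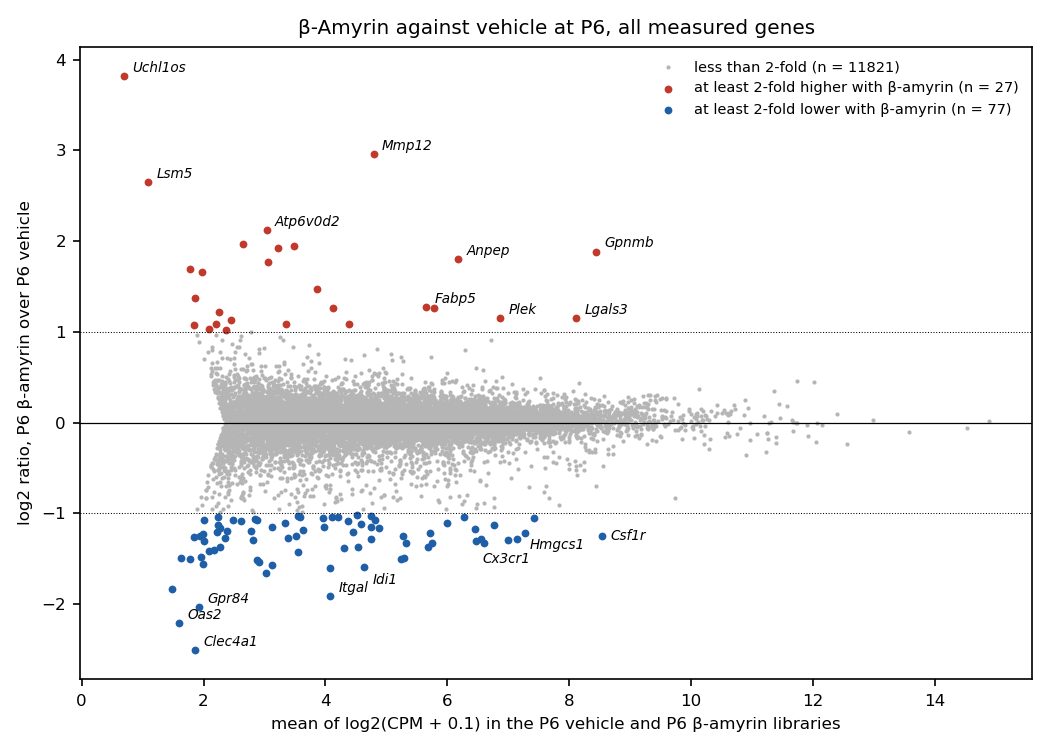
Each point is 1 of the 11925 measured genes, with the mean log2 level in the 2 libraries (CPM + 0.1) on the x axis and the log2 ratio of P6 β-amyrin over P6 vehicle on the y axis; dotted lines mark 2-fold. The 27 higher genes (red) include Mmp12, Gpnmb and Lgals3, and the 77 lower genes (blue) include Csf1r, Cx3cr1 and sterol genes such as Hmgcs1.

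The genes of cholesterol synthesis were lower with β-amyrin as a block. All 22 measured enzymes of the mevalonate and squalene-to-cholesterol lists had ratios below 0, against 46.6% of all measured genes, and 12 of the 22 were at least 2-fold lower, against 0.646%. Their median log2 ratio was -1.13, against 0.01 for all measured genes. The summed level of the 22 was 1712 CPM in P6 vehicle and 825 CPM in P6 β-amyrin. Fdps, the enzyme that makes farnesyl diphosphate, was under the minimum at 3.93 and 1.15 CPM.

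In the mevalonate part, 4 of 8 enzymes were at least 2-fold lower. Hmgcs1, HMG-CoA synthase, on chr13:119690379-119708260 (mm10), was at 220 CPM in P6 vehicle and 90.7 CPM in P6 β-amyrin, a log2 ratio of -1.28 (counting interval -1.35 to -1.21) or 2.43-fold lower. Idi1, the isomerase that makes dimethylallyl diphosphate, on chr13:8885501-8892451, had the lowest ratio of all the enzymes at -1.59, from 43.1 to 14.2 CPM. Mvd, the decarboxylase that ends the mevalonate steps, was at 33.1 and 14.3 CPM. Ggps1, which leads away to geranylgeranyl diphosphate and not to sterols, was at 43.0 and 42.3 CPM, a ratio of -0.02. The member nearest 0 was thus the branch enzyme.

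In the squalene-to-cholesterol part, 8 of 14 enzymes were at least 2-fold lower. Lss, lanosterol synthase, which closes oxidosqualene into lanosterol, was at 65.7 CPM in P6 vehicle and 23.3 CPM in P6 β-amyrin, 2.82-fold lower. Sqle, the epoxidase that makes oxidosqualene, was at 146 and 59.9 CPM, and Cyp51, the lanosterol demethylase, at 153 and 60.9 CPM. The later enzymes Msmo1 (-1.30), Nsdhl (-1.28), Tm7sf2 (-1.15) and Hsd17b7 (-1.11) had log2 ratios past 2-fold as well. Lbr, a sterol reductase that is also a protein of the nuclear envelope, was nearest to 0 of this list at -0.50. Antisense or overlapping genes inside 2 of these loci had like ratios: Gm48342 in Hmgcs1 at -1.32 and 4930483K19Rik in Lss at -1.40. Strand use in the counting is not given in the sources here, so these cannot be told apart from reads of the host genes.

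Genes that sense or take up sterol differed among themselves. Of 13 measured, 4 were at least 2-fold lower, among them Insig1 (-1.33) and Stard4 (-1.15). Insig1 holds the SREBP complex in the endoplasmic reticulum, and Stard4 carries cholesterol between membranes. Insig1 was at 85.2 CPM in P6 vehicle and 33.9 CPM in P6 β-amyrin. Srebf2, which encodes SREBP2, was at 208 and 127 CPM, a log2 ratio of -0.71. The SREBP escort Scap (0.03), the proteases Mbtps1 (0.12) and Mbtps2 (0.05) and Insig2 (0.04) lay close to 0, and the median of the list was -0.02.

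Efflux genes under LXR did not show the opposite sign. Of 11 measured members, 8 had ratios below 0 and the median was -0.19. Abca1, the efflux pump for cholesterol, was at 221 CPM in P6 vehicle, 212 CPM in P6 α-amyrin and 169 CPM in P6 β-amyrin, and Apoe was at 334, 344 and 232 CPM. Abcg1, a related pump, was at 21.3, 19.2 and 27.1 CPM, a β-amyrin over vehicle log2 ratio of 0.35. Among 14 measured genes of fatty acid synthesis, 13 had ratios below 0, with a median of -0.31. The desaturases led that list: Scd1 was at 161 and 73.9 CPM in P6 vehicle and β-amyrin (2.18-fold lower), Fads2 had a log2 ratio of -0.86 and Scd2 one of -0.83.

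The sterol genes were at like levels in both amyrin libraries of P6, and the vehicle library stood apart. Hmgcs1 was at 91.1 CPM in P6 α-amyrin and 90.7 CPM in P6 β-amyrin, and Lss at 25.3 and 23.3 CPM. The summed level of the 22 enzymes was 856 CPM with α-amyrin, and the median log2 ratio of α-amyrin over vehicle was -1.05, a comparison that shares the P6 vehicle library with the present one. Set directly against α-amyrin, the enzymes had a median of -0.08 in the β-amyrin library. At P1 the summed levels were 4015, 3516 and 3226 CPM with vehicle, α-amyrin and β-amyrin. The P1 ratio of β-amyrin over vehicle, from other libraries, had a median of -0.34, with 20 of 22 enzymes below 0 against 48.8% of all measured genes.

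**Figure D2:**
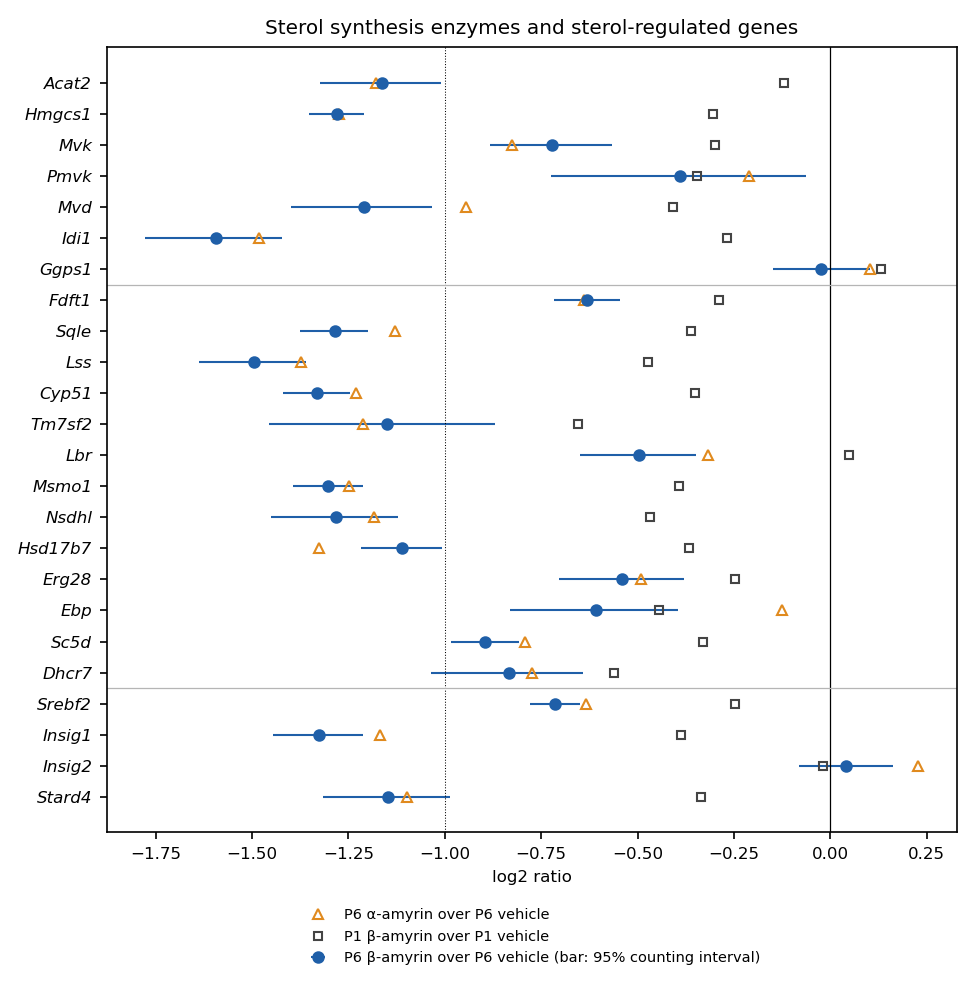
Log2 ratios (x axis) of 20 of the 22 measured sterol synthesis enzymes, mevalonate part above the first grey line, and of 4 genes of sterol sensing and transport below the second. Blue points with 95% counting intervals are P6 β-amyrin over P6 vehicle, open triangles P6 α-amyrin over the same vehicle library, and open squares P1 β-amyrin over P1 vehicle; the dotted line marks 2-fold lower. Triangles lie beside the blue points for most genes, and squares lie nearer to 0 for most.

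An additive edgeR quasi-likelihood test over all 6 libraries, with passage and compound as terms, called none of the 22 enzymes for β-amyrin at a Benjamini-Hochberg adjusted p below 0.05. The adjusted p was 0.393 for Hmgcs1 (log2 change -0.82, SE 0.24) and 0.323 for Lss (-0.97, SE 0.25). In this fit the passage difference in response counts as error, and 2 residual degrees of freedom remain. Over all 16962 genes tested it called 1 gene higher (0.00590%) and 0 lower, with 1738 at an unadjusted p below 0.05. DESeq2 with the same design called 114 genes. Leaving out 1 library gave 30 calls without P1 vehicle, 213 without P1 β-amyrin, 277 without P6 β-amyrin and 0 without any one of the other 3 libraries.

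Macrophage identity genes had unequal ratios between β-amyrin and vehicle. Of 27 measured markers, 21 had ratios below 0, against 46.6% of all measured genes, and 6 above 0. At least 2-fold lower were 3, against 0.646%, and the median was -0.38. Their summed level was 6706 CPM in P6 vehicle, 6883 CPM in P6 α-amyrin and 4985 CPM in P6 β-amyrin. In bulk RNA, fewer cells of a type and less RNA per cell cannot be told apart. Csf1r, through which CSF1 keeps macrophages alive, was at 573 CPM in P6 vehicle, 520 CPM in P6 α-amyrin and 240 CPM in P6 β-amyrin, 2.38-fold lower than vehicle. Cx3cr1, the fractalkine receptor, was at 199, 250 and 80.9 CPM, and Itgam, the CD11b integrin chain, at 59.7, 57.2 and 25.1 CPM. In each of these genes the vehicle and α-amyrin libraries were close and the β-amyrin library was low.

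Other members of the same list ran from moderately below 0 to above it. Adgre1 (F4/80) had a log2 ratio of -0.91, C1qa one of -0.70, Ptprc (CD45) one of -0.53 and Lyz2, lysozyme, one of -0.32. The signalling adaptors Tyrobp (-0.02) and Fcer1g (0.01), the tetraspanin Cd53 (0.05) and the Fc receptor Fcgr3 (0.08) hardly differed, while the lysosomal genes Ctss (0.36) and Cd68 (0.43) were higher. Cd68 was at 115, 137 and 154 CPM in P6 vehicle, α-amyrin and β-amyrin. The list thus ran from -1.29 for Cx3cr1 to 0.43 for Cd68. A wide full range was not particular to it, since the p53 target list ran from -0.85 to 0.75. Csf1, the ligand of Csf1r, was at 336 and 358 CPM in vehicle and β-amyrin, and the lineage factors Spi1 (-0.65) and Irf8 (-0.52) were lower.

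Further genes known from macrophages and other leukocytes filled the low end of the whole profile. Clec4a1, a C-type lectin of myeloid cells, had the lowest ratio of all at -2.51, with 8.54 CPM in P6 vehicle, 8.59 CPM in P6 α-amyrin and 1.43 CPM in P6 β-amyrin. Gpr84 (-2.03), a receptor for medium-chain fatty acids, Itgal (-1.92), the integrin chain of LFA-1, and Il16 (-1.83), a leukocyte cytokine, came next after Oas2. Ms4a6b (-1.66), Aif1 (-1.56), which encodes IBA1, the lectin Clec4a2 (-1.51) and the inflammasome sensor Nlrc4 (-1.50) were among the 15 lowest too. Itgal was at 32.6, 22.2 and 8.59 CPM in P6 vehicle, α-amyrin and β-amyrin. Hpgd, the enzyme that inactivates prostaglandins, was at 63.6, 69.2 and 22.3 CPM, and Bmf, a BH3-only cell death gene, had 354, 199 and 125 counts. For Clec4a1 and Hpgd, β-amyrin was the low library and the other 2 were near each other. Itgal, and Gpr84 at 7.56, 3.92 and 1.79 CPM, had α-amyrin in between.

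Genes of lipid-laden phagocytes ran the other way. Of 19 measured, 16 had ratios above 0, against 53.4% of all measured genes, and 6 were at least 2-fold higher, against 0.226%, with a list median of 0.34. Of the 19, 2 (Atp6v0d2 and Fabp4) met the minimum in the β-amyrin library alone, where they were higher. This list was chosen with earlier results of these libraries known and is not independent evidence of its direction. It shares members with the macrophage identity list, among them Cd68. Mmp12, macrophage elastase, on chr9:7344381-7369499 (mm10), was at 9.85 CPM in P6 vehicle, 16.3 CPM in P6 α-amyrin and 77.2 CPM in P6 β-amyrin, 7.79-fold above vehicle (log2 ratio 2.96, counting interval 2.77 to 3.17). Gpnmb, a lysosomal glycoprotein, on chr6:49036546-49070929, was at 180, 217 and 665 CPM. Atp6v0d2, a V-ATPase subunit of phagocytes and osteoclasts, was at 3.85, 5.52 and 17.0 CPM. In all 3 genes β-amyrin was the highest of the 6 libraries.

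The fatty acid binding proteins Fabp4 and Fabp5 and the lectin Lgals3 completed the 6. Fabp5 was at 32.3 CPM in P6 vehicle and 78.0 CPM in P6 β-amyrin, with α-amyrin below vehicle (log2 ratio -0.37). Fabp4 was at 1.82, 2.81 and 6.04 CPM. Lgals3, galectin-3, was at 187, 207 and 413 CPM, 2.21-fold above vehicle. Spp1, osteopontin, was at 2902, 3462 and 3980 CPM, and Plin2, which coats lipid droplets, at 204, 226 and 225 CPM. Lpl (-0.70) and Apoe (-0.53), which handle lipoprotein lipid, were the members farthest below 0. The summed level of the list was 10080 CPM in vehicle, 11293 CPM with α-amyrin and 12851 CPM with β-amyrin, beside a summed macrophage marker level that was lowest with β-amyrin; the part of cell number in either was not tested.

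Lysosomal genes at large did not follow Gpnmb and Atp6v0d2. All 37 measured lysosomal hydrolases and membrane proteins were within 1.5-fold, as were 97.1% of all measured genes, and their median was 0.06. Of 16 V-ATPase subunits, Atp6v0d2 alone passed 1.5-fold. Among 11 cathepsins Ctsc was at -0.84 and the median was 0.11. Tfeb (-0.35) and Mitf (-0.75), transcription factors of lysosomal genes, had ratios below 0.

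**Figure D3:**
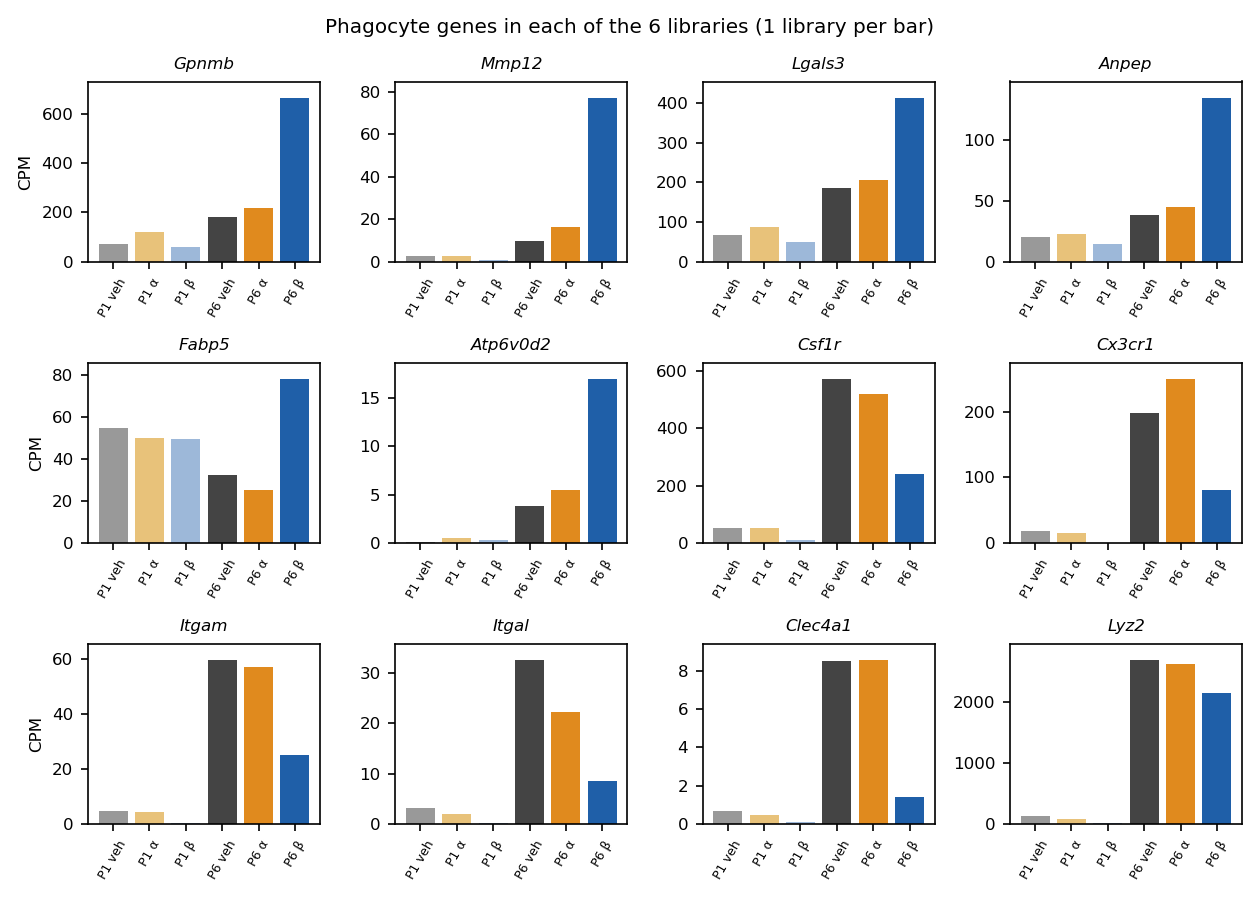
CPM (y axis, from 0, own scale for each gene) in each of the 6 libraries, 1 bar per library. Gpnmb, Mmp12, Lgals3, Anpep, Fabp5 and Atp6v0d2 were highest in P6 β-amyrin, while Csf1r, Cx3cr1, Itgam, Itgal and Clec4a1 were lower there than in P6 vehicle and P6 α-amyrin; Lyz2 differed little among the P6 libraries.

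The rest of the 15 highest genes came from several functions. Anpep, aminopeptidase N of the cell surface, was at 38.6, 45.4 and 135 CPM in P6 vehicle, α-amyrin and β-amyrin, 3.49-fold above vehicle. Il7r, the interleukin-7 receptor chain, was at 5.62, 8.65 and 21.9 CPM, and Rgs1, a brake on G protein signalling in leukocytes, at 3.09, 6.84 and 12.3 CPM. Vwf, von Willebrand factor, known from endothelium and platelets, was at 4.69, 4.61 and 18.0 CPM. The defining endothelial genes Pecam1, Cdh5 and Tie1 were at 0.761, 0.0423 and 0.0423 CPM in vehicle and at 0.199, 0.159 and 0 CPM with β-amyrin. Of the 18 endothelial markers 4 were measured, and Kdr was at 4.14, 4.19 and 6.80 CPM. Npy, neuropeptide Y, was at 8.62, 9.44 and 24.0 CPM, and Adra1a, an adrenergic receptor, at 2.16, 2.65 and 5.72 CPM. Rps25-ps1 (1.66) is a processed pseudogene that can share reads with its parent gene, so its ratio is uncertain. Among higher genes outside the top 15, picked after their values were seen, Plek, a leukocyte signalling protein, was at 78.4, 92.8 and 174 CPM and Fnip2, a folliculin partner, at 35.3, 51.2 and 85.0 CPM.

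Uchl1os had the highest ratio of all, 3.82 (counting interval 3.10 to 5.35), and was high with β-amyrin at both passages. It is annotated as antisense at chr5:66626495-66676498 (mm10, minus strand) and overlaps the start of Uchl1, the neuronal ubiquitin hydrolase gene. It had 8 counts in P6 vehicle, 4 in P6 α-amyrin and 147 in P6 β-amyrin, which are 0.338, 0.212 and 5.84 CPM. At P1 it was at 0.460 CPM with vehicle, 0.204 CPM with α-amyrin and 10.1 CPM with β-amyrin. It was the 1 gene called by the additive edgeR test (log2 change 4.30, SE 0.26, Benjamini-Hochberg adjusted p = 0.0165). Uchl1 itself was at 60.6, 67.5 and 66.9 CPM in the P6 libraries. Without strand in the counting, reads of the overlap could belong to either gene.

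Of 49 listed interferon-stimulated genes, 26 were measured. Ratios below 0 were found for 21 of them, against 46.6% of all measured genes, and 4 were at least 2-fold lower, against 0.646%, with a median of -0.33. Of the 26, 7 met the minimum in only 1 library, and Oas2, Oasl2 and Rtp4 met it in vehicle alone, where they were higher. Oas2, an antiviral oligoadenylate synthase, was at 6.38 CPM in P6 vehicle, 3.18 CPM in P6 α-amyrin and 1.31 CPM in P6 β-amyrin. Oasl2 (-1.41), Rtp4 (-1.06) and Parp14 (-1.03) were the other 3. The GTPase gene Irgm1 (0.01) hardly differed, and Ifit2 (0.25) and Ifit3 (0.26) were the highest. The low values were spread unevenly over the list, with α-amyrin between vehicle and β-amyrin for Oas2, Oasl2, Rtp4 and Parp14. The macrophage marker sum was lower in the same library, and its part in these ratios was not tested.

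Complement and pattern recognition genes included further low members. C3, the central complement protein, was at 12.6, 7.85 and 4.29 CPM in P6 vehicle, α-amyrin and β-amyrin. Cfp, properdin, had a log2 ratio of -0.83. The list median over 12 measured genes was 0.04, since C1s1 (0.05), Serping1 (0.06) and Masp1 (0.26) did not share the direction. The receptors Tlr2 (-1.07), Tlr8 (-1.12) and Tlr9 (-1.49) and the inflammasome sensors Nlrp3 (-1.29) and Nlrp1b (-1.07) were at least 2-fold lower; these 5 were picked after their values were seen.

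Secreted inflammatory factors showed no common direction. Of 39 listed factors of the senescence-associated secretory phenotype, 21 were measured, 13 above and 8 below 0, with a median of 0.10. The macrophage chemokines Ccl4 (3.04, 5.14 and 7.20 CPM in P6 vehicle, α-amyrin and β-amyrin) and Ccl3 (8.20, 9.33 and 14.6 CPM) were the highest. Ccl2 was at 42.0 and 45.0 CPM in vehicle and β-amyrin. Il6, at 1.14 and 1.23 CPM, and Cxcl1, at 2.49 and 4.89 CPM, were under the minimum. Of 22 measured NF-kB subunit and feedback genes, 15 were below 0, against 46.6% of all measured genes, with a median of -0.10, and Bcl3 (-0.69), Nfkbie (-0.64) and Nfkbia (-0.46) were the farthest.

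The integrated stress response, in which ATF4 raises amino acid and cell death genes, had mostly small ratios above 0. Of 30 measured members 25 were above 0, against 53.4% of all measured genes, and 2 were at least 2-fold higher, against 0.226%. Of the 30, 1 (Trib3, also 1 of the 2) met the minimum in the β-amyrin library alone, where it was higher. The median of 0.20 lay inside the range that held 90% of all measured genes. Trib3, a pseudokinase induced late in the response, was at 4.44 CPM in P6 vehicle, 12.6 CPM in P6 α-amyrin and 15.3 CPM in P6 β-amyrin. Atf3 was at 11.1, 21.7 and 26.7 CPM, and Chac1, which degrades glutathione, at 6.76, 11.8 and 13.0 CPM. In these 3 genes both amyrin libraries were above vehicle. Atf4 (0.31) and Ddit3 (0.67) were higher by less than 2-fold, and Asns (-0.08) was not. At P1 the β-amyrin ratio of Trib3 had the other sign, with 45.4, 29.5 and 36.8 CPM in vehicle, α-amyrin and β-amyrin. Lsm5, a protein of the U6 snRNP, had a pattern of its own: it was at 0.761 CPM in P6 vehicle, 3.82 CPM in P6 α-amyrin and 5.21 CPM in P6 β-amyrin but between 7.74 and 9.56 CPM at P1, so that the P6 vehicle library was the one that stood apart.

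Core senescence genes were close between β-amyrin and vehicle. Cdkn2a, the locus of p16 and p19ARF, was at 115 CPM in both, with 116 CPM in α-amyrin. Cdkn1a, p21, was at 523 and 567 CPM, and Lmnb1, lamin B1, at 21.9 and 23.5 CPM. All 19 measured members of the CDK inhibitor and senescence list were within 1.5-fold, as were 97.1% of all measured genes. Their median was 0.03. Hmga1 (0.57) and Hmga2 (0.44), chromatin proteins of senescent and proliferating cells, were the highest of them. Sesn1 (-0.85), a stress-induced sestrin, and Gadd45a (0.75), a growth arrest gene, stood at the ends of the p53 target list.

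Genes of replication and protein synthesis had small ratios, mostly above 0. Of 44 measured G1/S and replication genes, 40 were above 0, against 53.4% of all measured genes, with a median of 0.14. All 44 were within 1.5-fold, as were 97.1% of all measured genes. Cdc6 (0.54), Mcm2 (0.45) and Cdt1 (0.42), which load replication origins, led them. Mitotic genes had a median of 0.08, and Mki67 was at 93.4 CPM in P6 vehicle and 77.6 CPM with β-amyrin. Cytosolic ribosomal proteins were above 0 for 67 of 70 measured, with a median of 0.15, and nuclear-encoded respiratory chain genes for 48 of 55, with a median of 0.11. All 11 measured mitochondrially encoded genes were below 0, with a median of -0.23 and a lowest value of -0.29 for mt-Nd4. These medians lie inside the range that held 90% of all measured genes.

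Of the matrix, matrix protease and contractile lists, Mmp12 alone had a 2-fold difference. All 23 measured collagen chains were within 1.5-fold, as were 97.1% of all measured genes, with a median of -0.10. The 22 myofibroblast contractile genes had a median of -0.02. Acta2, smooth muscle actin, was at 2528 CPM in P6 vehicle, 1924 CPM in P6 α-amyrin and 2325 CPM in P6 β-amyrin. Postn (-0.35), Eln (-0.37) and Itga11 (-0.34) were slightly lower, and Dpt, dermatopontin, was at 4.31, 8.43 and 8.19 CPM. Plau, urokinase, was at 71.8, 85.1 and 109 CPM. Hmox1, an NRF2 target, was at 326, 259 and 234 CPM, and the metallothioneins Mt1 (-0.63) and Mt2 (-0.80) were lower.

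**Figure D4:**
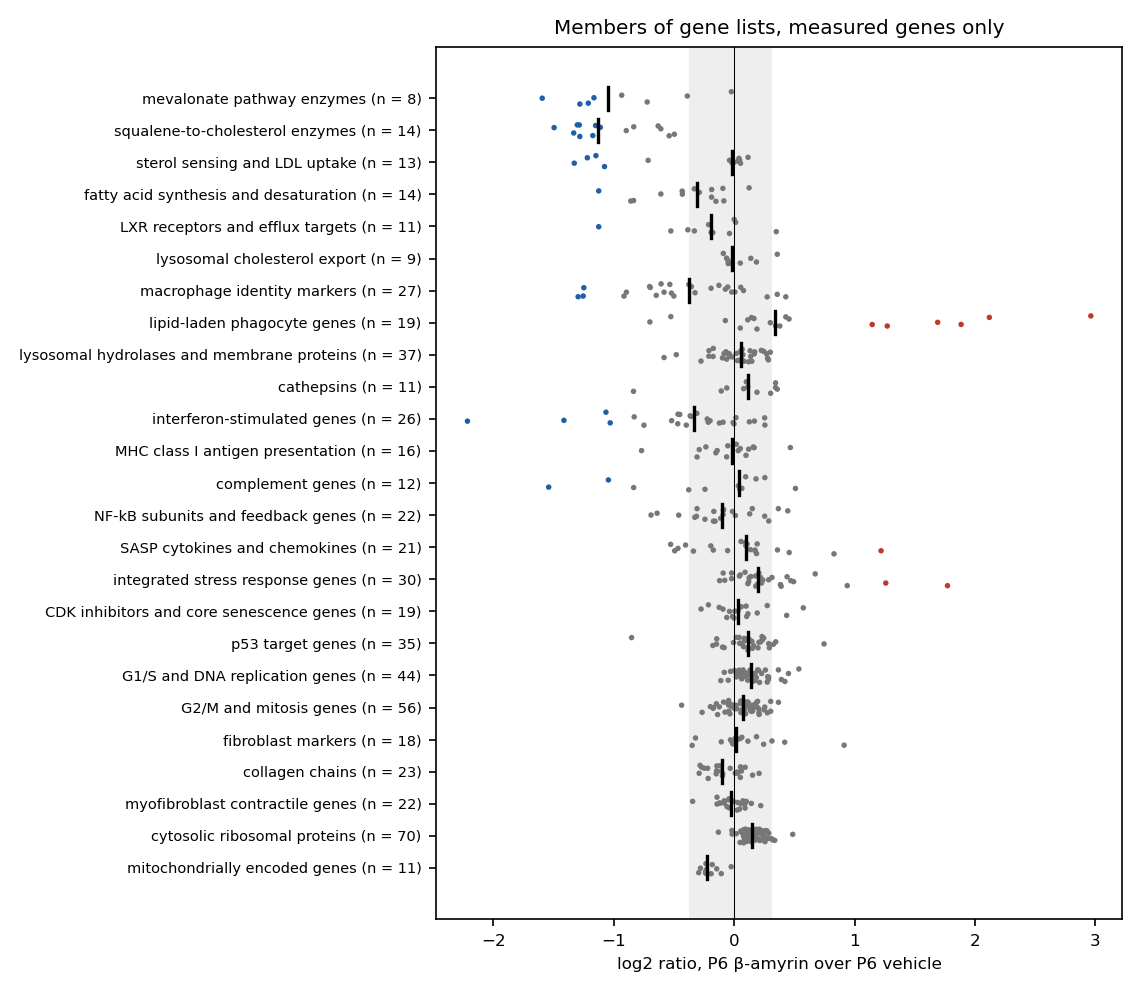
Log2 ratio of P6 β-amyrin over P6 vehicle (x axis) for the measured members of 25 gene lists (rows), with a black bar at each median; red and blue points are at least 2-fold higher or lower, and the grey band holds the middle 90% of all measured genes. The sterol synthesis lists lie left of the band with medians of -1.05 and -1.13, and the lipid-laden phagocyte list has 6 points past 2-fold on the right.

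Set beside α-amyrin at P6, the changed genes were of different kinds. Of the 77 lower genes, 23 were also at least 2-fold lower with α-amyrin, against 0.244% of genes measured in that pair, and 48 had α-amyrin within 1.5-fold of vehicle. Of the 27 higher genes, 4 were at least 2-fold higher with α-amyrin, against 0.118%, and 13 had α-amyrin within 1.5-fold of vehicle. Both comparisons use the P6 vehicle library. Lying within 1.5-fold of vehicle was the rule over all genes in the β-amyrin pair (97.1% of measured genes). The like share for α-amyrin is not given here, so the 48 and 13 are plain counts. Taken directly against α-amyrin, 12 of the 27 were at least 2-fold higher with β-amyrin (0.126% of genes in that pair) and 38 of the 77 at least 2-fold lower (0.547%). Mmp12, Gpnmb, Anpep, Fabp5, Csf1r, Cx3cr1 and Clec4a1 belong to those that differed from both libraries, with log2 ratios over α-amyrin of 2.24, 1.61, 1.57, 1.64, -1.11, -1.63 and -2.52. Hmgcs1, Trib3 and Atf3, at -0.01, 0.28 and 0.30, do not. All these genes were picked by their ratio over vehicle, and the same P6 β-amyrin library enters the ratio over α-amyrin. The ratio over α-amyrin is therefore no independent check of the ratio over vehicle.

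The P1 pair, which shares no library with the P6 pair, had the same sign for most lower genes and the opposite sign for most higher ones. Of the 77 lower genes 73 were below 0 at P1, against 48.8% of all measured genes, and 41 were at least 2-fold lower there, against 0.864% of the genes measured in the P1 pair. Of the 27 higher genes 23 were below 0 at P1. Across the 11925 measured genes the 2 ratios had a Pearson r of 0.363 and a Spearman rho of 0.291, a description across genes, which are not independent replicates. The P1 β-amyrin library held few macrophage transcripts: the summed markers were 503 CPM in P1 vehicle, 438 CPM in P1 α-amyrin and 58.2 CPM in P1 β-amyrin, and all 27 measured markers were below 0 there, with a median of -3.35.

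**Figure D5:**
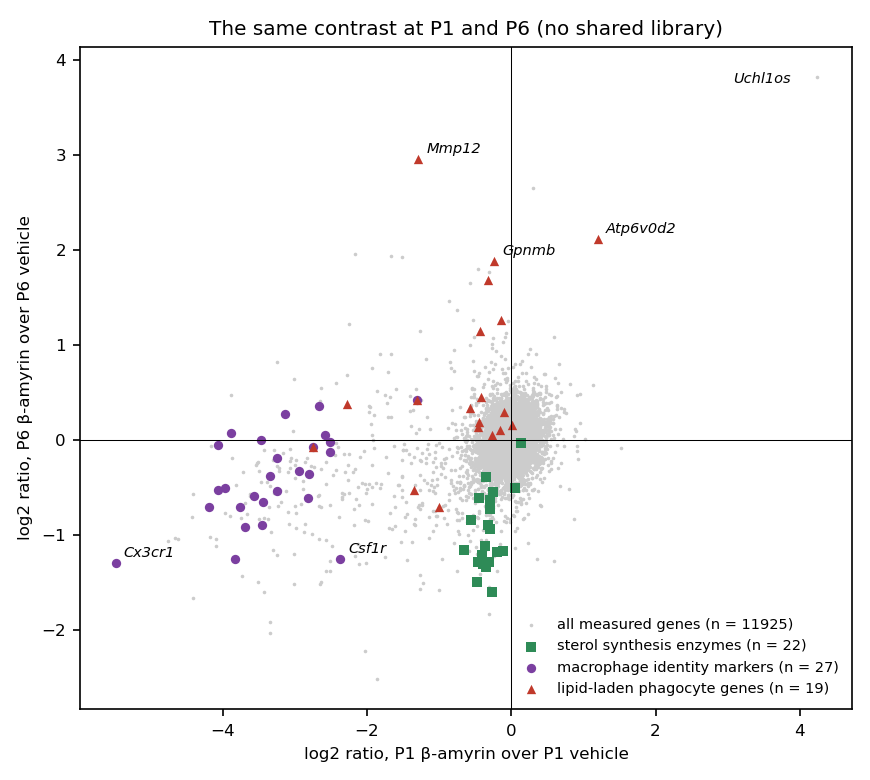
Log2 ratio of β-amyrin over vehicle at P1 (x axis) and P6 (y axis) for the 11925 measured genes, with 3 gene lists marked. Macrophage markers lie far to the left with P6 values from -1.29 to 0.43, sterol enzymes lie below 0 at P6 and nearer 0 at P1, and Uchl1os lies farthest to the upper right.

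Whether the response to β-amyrin differed between passages was tested with a passage-by-β-amyrin term in edgeR's quasi-likelihood model. Its 1 residual degree of freedom comes from α-amyrin. The model gives α-amyrin 1 effect for both passages, so a passage difference in the α-amyrin response counts as error. Differences from this term are fitted values and not the plain difference of the P6 and P1 ratios. It called 179 genes as more positive at P6 (1.06% of 16962) and 9 as more negative (0.0531%), with 945 genes at an unadjusted p below 0.05 and 120 called by DESeq2. All 27 measured macrophage markers were among the calls, as were 9 of the 19 lipid-laden phagocyte genes, and none of the 22 sterol enzymes was. Gpnmb had a difference of 2.35 log2 units (SE 0.16, edgeR Benjamini-Hochberg adjusted p = 4.64e-06), Mmp12 one of 3.97 (SE 0.32, adjusted p = 2.19e-05) and Fabp5 one of 1.53 (SE 0.14, adjusted p = 4.56e-05). Fabp5 was at 54.6 CPM in P1 vehicle and 49.4 CPM in P1 β-amyrin, a log2 ratio of -0.14, beside the macrophage sums of those libraries given above. Csf1r, lower with β-amyrin at both passages, was less so at P6 (difference 1.19, SE 0.13, adjusted p = 0.000242). The macrophage and lipid-laden phagocyte lists share members, among them Cd68, which counts in both. How far the few macrophage transcripts of the P1 β-amyrin library enter these differences was not tested. For sterol enzymes the α-amyrin response differed between passages. Hmgcs1 was at 592 and 535 CPM in P1 vehicle and α-amyrin, and at 220 and 91.1 CPM in P6 vehicle and α-amyrin. The lack of sterol calls therefore does not show a like response to β-amyrin at both passages.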

How the data were processed

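Libraries were made from poly(A) RNA with a directional kit, per the labels' protocols. The submitters' processing notes name HISAT2 2.1.0, featureCounts 1.6.3, SAMtools 1.9, Trimmomatic 0.38 and FastQC 0.11.7 with build mm10, without settings. Raw read counts for 55487 genes, as the authors deposited them, were used throughout. Also used were deposited FPKM values, whose computation is not stated and which entered only as an alternative.

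Counts were scaled by TMM (edgeR 4.0.16, R 4.3.3). Ratios used a prior count of 2, and a gene was counted as higher or lower at 2-fold or more with at least 5 CPM in 1 library of the pair. Counting intervals are 95% exact binomial (Clopper-Pearson) and cover counting error only. Genes passing filterByExpr (16962) entered quasi-likelihood tests of all 6 libraries, which were tested on simulated data with 100 genes changed 2-fold. The additive β-amyrin fit recovered 100% of them and the passage-by-β-amyrin fit 85%, with 7 and 10 false calls among the unchanged genes. Recovery by the additive fit of changes that differ in size between passages was not tested. The simulated libraries held no passage effect and no α-amyrin effect. Recovery by the passage-by-β-amyrin fit where the α-amyrin effect differs between passages was therefore not tested either. With 1 library per condition, p-values measure only the spread among these libraries.

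The 73 gene lists and the members were chosen with earlier results of these data known. Genes were named by rule: the 15 highest and 15 lowest, up to 3 members farthest from 0 per list with 3 or more measured, and 22 genes of interest; other list members were picked after their values were seen. Alternatives were DESeq2 1.42.0, limma 3.58.1, other scalings, prior counts, minimums and folds, FPKM, and leaving out libraries. Some list members count in totals but are not reported here by name.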

Additional observations from a re-analysis of the deposited data

Results flagged for a closer look

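For 31 of the genes named by rule or counted as 2-fold higher or lower, the β-amyrin over vehicle difference was not the same at P6 and P1 by the passage-by-β-amyrin term of edgeR's quasi-likelihood test (Benjamini-Hochberg adjusted p from 1.82e-06 for Laptm5 to 0.0337 for Plau). It was more positive at P6 in 29 and more negative in 2, and 29 of the 31 were below 0 at P1. Over all 16962 genes tested, the shares called were 1.06% as more positive and 0.0531% as more negative at P6. Apart from the genes of interest, the genes looked at were picked by their P6 ratios. The same P6 libraries enter the test, so the 31 are not independent of that choice.

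The fitted term rests on a shared α-amyrin effect for both passages and is not the plain difference of the P6 and P1 ratios. Among genes higher with β-amyrin at P6, this term, in log2 units, was 4.82 for Ccl3, 4.22 for Rgs1 and 4.02 for Il7r. It was 3.97 for Mmp12, 3.96 for Vwf, 3.45 for Ccl4, 2.97 for Ctss, 2.77 for Npy and 2.35 for Gpnmb. Plek had 2.30, Rps25-ps1 2.24, Anpep 2.24, Abcg1 1.97, Lgals3 1.68, Fabp5 1.53, Fnip2 1.38 and Plau 0.58. Several of these stood at few counts at P1: Rgs1 was at 1.19 CPM in P1 vehicle and 0.201 CPM in P1 β-amyrin, Il7r at 0.690 and 0.161 CPM, and Vwf at 0.843 and 0.241 CPM. Gpnmb (73.0 and 62.0 CPM), Anpep (20.3 and 14.7 CPM) and Lgals3 (68.4 and 50.7 CPM) did not.

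Among genes lower at P6 and more so at P1, the fitted term was 4.80 for Lcp2, 4.30 for Gm8995 and 4.21 for Cx3cr1. It was 3.58 for Fcrls, 3.11 for Laptm5, 3.09 for Irf8 and 2.98 for Spi1. Itgam had 2.96, Lyz2 2.31 and Csf1r 1.19. Bin2 (7.50) and Fgd2 (7.01) were at 0 CPM in P1 β-amyrin, so their fitted differences depend on the prior count and are no bound. Sesn1 (-0.79) and the pseudogene Gm12751 (-1.90) had the more negative ratio at P6. Summed macrophage markers were 503 CPM in P1 vehicle and 58.2 CPM in P1 β-amyrin, and their part was not tested.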

How the results depend on the processing

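Under DESeq2 size factors, total counts and prior counts of 0.5 and 5, the 27 higher genes came to 26 to 28 and the 77 lower genes to 77 or 78. The minimum, the fold and the comparator mattered more. The higher and lower counts were 97 and 197 at a minimum of 1 CPM, 16 and 53 at 10 CPM and 766 and 1657 with no minimum. They were 94 and 252 at 1.5-fold and 86 and 104 in the deposited FPKM. Of the 27 and 77 genes, 12 and 38 were past 2-fold in the same direction against both the vehicle and the α-amyrin library. With the P6 α-amyrin library as comparator, an alternative chosen after seeing the data, the counts were 15 and 65. Among the named genes past 2-fold against vehicle, Gjb2 alone changed sign, to 0.37. Of 220 named genes, 162 moved out of their counting interval under that comparator and 40 under FPKM, and none under the 4 scalings and prior counts. Changes of sign were looked for only in genes past 2-fold. The 162 therefore include smaller ratios that changed sign, such as Dpt (0.91 over vehicle, -0.04 over α-amyrin).

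The additive β-amyrin fit called 1 gene, but 114 with DESeq2, 404 with no filter, 3 with DESeq2 size factors in edgeR, 0 with limma on FPKM and 0 with the vehicle and β-amyrin libraries only. Leaving out 1 library gave 0 to 277 calls; the cause was not tested. The passage-by-β-amyrin term called 188 genes with edgeR and 120 with DESeq2, all 120 shared. The additive fit has passage as a block, so libraries are paired by passage; each passage holds 1 library per treatment.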

Other observations

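Gene Ontology terms were taken from the annotation columns of the deposited table and picked after the data were seen. Over all measured genes, 0.646% were at least 2-fold lower with β-amyrin at P6 and 0.226% at least 2-fold higher. Of 19 measured genes annotated to cholesterol biosynthetic process, 11 were at least 2-fold lower with β-amyrin at P6, with a median log2 ratio of -1.15. Of 135 genes of inflammatory response, 9 were at least 2-fold lower and 1 was higher. Of 211 genes of innate immune response, 9 were lower and 2 higher, and of 131 genes of immune system process 7 were lower. The broad terms cell cycle (326 genes, 1 lower), lysosome (197 genes, 2 lower) and extracellular matrix organization (90 genes, 1 higher) held 1 or 2 such genes each, and their medians were 0.03, 0.01 and 0.01. These terms share genes with the lists of the report.

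Genes that were at least 4-fold lower with β-amyrin at P1, with at least 1 CPM in a library there, numbered 150, of which 145 were measured at P6. At P6, 130 of them had ratios below 0, against 46.6% of all genes measured there, and 15 above, with a median of -0.50 and a range from -2.03 to 1.97. At least 2-fold lower at P6 were 25, against 0.646%, and 2 were at least 2-fold higher, against 0.226%.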
